A study of Mus musculus with 10 samples.

Results

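The 10 genes described here were grouped as inducible inhibitors of signaling through nuclear factor κB (NF-κB) and Toll-like receptors (TLR). Not all of them act as inhibitors alone. They were taken by symbol, with earlier results of these data known, as Nfkbia, Nfkbie, Nfkbid, Nfkbiz, Bcl3, Tnfaip3, Tnip1, Tnip3, Irak3 and Zfp36, and all 10 were found among the 55421 genes of the count table. NF-κB dimers are held in the cytoplasm by IκB proteins until a receptor such as a TLR, the interleukin-1 receptor or the tumor necrosis factor receptor activates the IκB kinase complex, which marks IκB for degradation. The freed dimers enter the nucleus and switch on inflammatory genes together with genes that end the response, so that new IκB, ubiquitin-editing enzymes and mRNA-destabilizing proteins are made within the same response. In macrophages this feedback sets how strong and how long the production of cytokines is.

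RNA sequencing was performed on tumor-associated macrophages (TAM) and on spleen myeloid-derived suppressor cells (MDSC), immature myeloid cells that expand in tumor-bearing animals, of young adult mice that had carried MC17-51 fibrosarcoma tumors for 15 days. Ptpn11, the gene of the phosphatase SHP-2, was floxed in the mice of all groups. Shp2f/f mice carried nothing further, and Shp2f/fLysMcre mice also expressed Cre recombinase from the lysozyme M gene Lyz2, which is active in myeloid cells and not in macrophages alone. There were 3 TAM libraries and 2 MDSC libraries of each genotype, 10 in all, with total counts between 28844660 and 38222998. TAM were sorted from collagenase-digested tumors as live CD45+CD11b+F4/80+Ly6G- cells, and MDSC were isolated from spleens with magnetic beads, as GR-1+ cells in the labels and as GR1hi Ly6G+Ly6C- cells in the methods of the study. Both cell types came from the same mice. The strain of the floxed mice, the pooling of animals and the libraries that shared a mouse were not given, so p-values measure the spread between these libraries, which may be in part technical.

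Before the results, the libraries were checked against their labels. Ptpn11 was between 121 and 125 CPM (a gene's counts relative to the TMM-scaled total of its library, in parts per 1000000) in TAM Shp2f/f and between 50.9 and 54.2 CPM in TAM Shp2f/fLysMcre. In MDSC it was between 99.2 and 113 CPM in Shp2f/f and between 79.7 and 94.8 CPM in Shp2f/fLysMcre, a much smaller gap. Lyz2, whose locus carries Cre, was between 3437 and 3666 CPM in TAM Shp2f/f and between 9.38 and 12.6 CPM in TAM Shp2f/fLysMcre, and in MDSC it was at 8966 and 9463 CPM against 43.3 and 47.1 CPM, so that all 10 libraries matched their genotype label. The summed level of 8 macrophage markers was 7095 to 7445 CPM in TAM Shp2f/f and 9959 to 10844 CPM in TAM Shp2f/fLysMcre, with all 8 called higher. That of 7 neutrophil markers was 8266 to 8333 CPM in MDSC Shp2f/f and 18561 to 22058 CPM in MDSC Shp2f/fLysMcre, with 3 of 7 called higher, while the MDSC libraries also held 3569 to 5961 CPM of 4 monocyte markers. In TAM the neutrophil sum was 290 to 304 CPM in Shp2f/f and 473 to 501 CPM in Shp2f/fLysMcre. Of 6 tested neutrophil markers 5 were called higher, as were 3 of 3 endothelial markers. All 4 NK cell markers were called lower. T cell markers were mixed, with 5 of 6 called lower and 1 higher. Their sum was 25.8 to 26.5 CPM in TAM Shp2f/f and 57.3 to 58.2 CPM in TAM Shp2f/fLysMcre. Pancreatic islet transcripts, from 5 markers, were at 843 to 6555 CPM in TAM Shp2f/f and at 6.10 to 80.5 CPM in TAM Shp2f/fLysMcre. The 6 fibroblast and tumor cell markers summed to 11.1 and 506 CPM in MDSC from Shp2f/fLysMcre mice, so that replicate 2 of that group stood apart. The X-linked transcript Xist separated the genotypes in both cell types, Shp2f/fLysMcre being higher, at 209 to 372 against 4.82 to 18.1 CPM in TAM and at 119 to 132 against 0.0289 to 0.0290 CPM in MDSC. The Y-linked gene Ddx3y was lower in Shp2f/fLysMcre and not absent, at 38.6 to 44.7 against 81.8 to 85.6 CPM in TAM and at 22.3 to 27.8 against 50.6 to 54.8 CPM in MDSC. The sex composition of the libraries and the genotype cannot be told apart, and the part of these differences in the results below was not tested.

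Because several of these genes are known targets of NF-κB, the 250 bases upstream of their RefSeq transcription starts (GRCm38.p6) were searched on both strands for the κB consensus. A match was found for 6 of the 9 members with a promoter entry and in 6 of their 13 promoters, against 3.90% of 32851 promoters and 4.46% of 27025 genes in the table. Windows around these matches are shown because they are the feature that most of the members share in sequence. Each is printed 5′ to 3′ on the strand of its gene, with the match in capitals, and none of the printed windows overlaps an annotated exon.
Nfkbia, chr12:55492648-55492701, minus strand: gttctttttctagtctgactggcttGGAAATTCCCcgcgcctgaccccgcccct
Nfkbie, chr17:45555569-45555628, plus strand: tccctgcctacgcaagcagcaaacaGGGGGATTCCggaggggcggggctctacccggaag
Nfkbid, chr7:30422156-30422259, plus strand: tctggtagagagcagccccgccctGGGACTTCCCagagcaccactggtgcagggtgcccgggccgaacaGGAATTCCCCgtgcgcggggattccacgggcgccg
Tnfaip3, chr10:19015411-19015447, minus strand: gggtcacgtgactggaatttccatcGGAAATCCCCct
Tnip1, chr11:54962962-54963023, minus strand: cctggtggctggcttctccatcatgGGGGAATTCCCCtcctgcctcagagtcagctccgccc
Tnip3, chr6:65590319-65590378, plus strand: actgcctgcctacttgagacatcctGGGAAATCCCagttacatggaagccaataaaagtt

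The match nearest to the start lay 19 bases upstream of it for Nfkbia, 96 for Nfkbie, 171 for Nfkbid, 2 for Tnfaip3, 46 for Tnip1 and 44 for Tnip3. Tnip1 held 3 overlapping matches, which together form a single palindromic run, and Nfkbid held 2 separate matches. The windows of Nfkbid, Tnfaip3 and Tnip3 precede an alternative start within the span of the gene. A second Tnfaip3 match, 115 bases upstream of another start, lay beside an annotated exon and is not printed. No match to these letters was found in the searched windows of Bcl3, Irak3 and Zfp36, and Nfkbiz had no promoter entry. A match describes the letters of the sequence and was not measured as a bound site.

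On the GRCm38 genome the members lie on 7 chromosomes, with Tnfaip3 and Irak3 on chromosome 10 and Bcl3, Zfp36 and Nfkbid on chromosome 7. All are protein-coding. The IκB genes are Nfkbia (ENSMUSG00000021025, chr12:55489410-55492647, minus strand), Nfkbie (ENSMUSG00000023947, chr17:45555703-45563169, plus), Nfkbid (ENSMUSG00000036931, chr7:30421732-30428746, plus), Nfkbiz (ENSMUSG00000035356, chr16:55811375-55838899, minus) and Bcl3 (ENSMUSG00000053175, chr7:19808462-19822770, minus). The genes of the ubiquitin-editing enzyme A20, its binding partner ABIN1 and the related ABIN3 are Tnfaip3 (ENSMUSG00000019850, chr10:19000910-19015657, minus), Tnip1 (ENSMUSG00000020400, chr11:54910785-54962917, minus) and Tnip3 (ENSMUSG00000044162, chr6:65525313-65634040, plus). Irak3 (ENSMUSG00000020227) is at chr10:120141648-120202130 on the minus strand and Zfp36 (ENSMUSG00000044786) at chr7:28376784-28380253 on the minus strand.

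The first question was how strongly each inhibitor was expressed in the cells with intact Ptpn11. Per kilobase of exon, Nfkbia led in TAM Shp2f/f with 788 ± 23.0 CPM per kb (SD, n = 3), followed by Zfp36 with 414 ± 8.52, Nfkbie with 172 ± 5.40, Tnfaip3 with 153 ± 2.96 and Nfkbiz with 128 ± 1.57. Below these came Nfkbid with 69.8 ± 0.344, Tnip1 with 37.3 ± 1.05, Bcl3 with 21.5 ± 0.556, Irak3 with 6.02 ± 0.0463 and Tnip3 with 1.18 ± 0.132 CPM per kb (SD, n = 3). The libraries of neighbors in this order did not overlap. In Shp2f/fLysMcre TAM, Tnfaip3 (219 ± 3.56) and Nfkbiz (213 ± 2.34) ranked above Nfkbie (150 ± 5.46), and neighbors in that order did not overlap either. In MDSC Shp2f/f the order was different, with Zfp36 first at 341 ± 18.5 CPM per kb (SD, n = 2), Nfkbia second at 147 ± 5.18 and Bcl3 next at 53.2 ± 3.41. Nfkbiz (35.0 ± 1.83) and Nfkbid (33.3 ± 1.18) overlapped between libraries, as did Irak3 (14.1 ± 0.451) and Nfkbie (13.7 ± 0.458). Tnip1 stood between these pairs at 21.2 ± 0.0979, and Tnfaip3 (12.9 ± 0.546) and Tnip3 (0.114 ± 0.0295) came last.

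**Figure D1:**
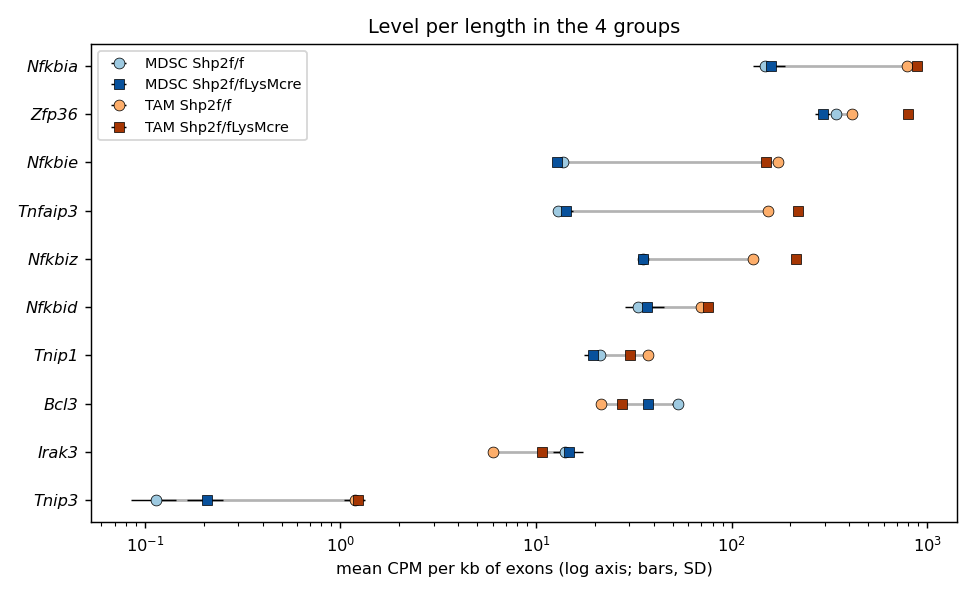
Mean level of each gene per kilobase of exon (CPM per kb, log axis; bars, SD) in MDSC (blue, n = 2 per genotype) and TAM (orange, n = 3 per genotype), circles for Shp2f/f and squares for Shp2f/fLysMcre, with a gray line joining the Shp2f/f means. Nfkbie, Tnfaip3 and Tnip3 have the longest lines, and Bcl3 and Irak3 are the genes whose MDSC Shp2f/f level lies above the TAM Shp2f/f level.

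All 10 inhibitors differed between TAM and MDSC in the Shp2f/f mice, 8 of them higher and 2 lower in TAM (edgeR quasi-likelihood F test, Benjamini-Hochberg (BH)-adjusted p under 0.05). Of all 15659 genes tested, 78.8% were called, 40.0% higher and 38.8% lower. In log2 the differences were 3.65 for Nfkbie (SE 0.0586), 3.57 for Tnfaip3 (SE 0.0562), 3.37 for Tnip3 (SE 0.164), 2.41 for Nfkbia (SE 0.0511) and 1.87 for Nfkbiz (SE 0.0533). Nfkbid (1.06, SE 0.0449), Tnip1 (0.81, SE 0.0465) and Zfp36 (0.28, SE 0.0474) differed by less. Bcl3, which encodes a nuclear IκB protein that binds p50 and p52 dimers, and Irak3, which encodes the kinase-inactive IRAK-M, were the members that were lower in TAM, with -1.31 (SE 0.0514) for Bcl3 and -1.23 (SE 0.0514) for Irak3 on the log2 scale. Each had a BH-adjusted p of at most 0.000452 in the edgeR test, as had the other 8. The fit took the libraries as independent although both cell types came from the same mice. Cell type, tissue and isolation method cannot be told apart in this comparison. In RNA of sorted or bead-isolated cells, fewer cells of a type and less RNA per cell cannot be told apart either.

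The main comparison asked which inhibitors differed between the genotypes in TAM. Zfp36, Irak3, Nfkbiz, Tnfaip3, Bcl3 and Nfkbia were higher in Shp2f/fLysMcre TAM, Nfkbie and Tnip1 were lower, and Nfkbid and Tnip3 were not called. These are 8 of 10 members called, against 50.2% of 14446 genes tested, with 6 higher against 23.9% and 2 lower against 26.3% of all genes. The libraries of the genotypes did not overlap for 9 of the 10 members, against 57.9% of all genes. The median log2 difference was 0.23 for the members and -0.013 for all genes tested. Levels below are CPM scaled over all 10 libraries, on which the log2 ratio of TAM group means lies 0.036 above the fitted difference.

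Among the mRNA-level inhibitors, Zfp36, which encodes tristetraprolin, a protein that binds AU-rich elements and destabilizes Tnf and other cytokine mRNA, had the largest TAM difference. It was at 1417, 1471 and 1422 CPM in the Shp2f/f libraries and at 2859.8, 2784 and 2615 CPM in the Shp2f/fLysMcre libraries. Every Shp2f/fLysMcre library was far above every Shp2f/f library. The log2 difference was 0.90 (SE 0.0344, edgeR, BH-adjusted p = 1.09e-08).

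At the receptor level, Irak3 encodes IRAK-M, which holds back signaling from the MyD88 complex. Its level was 21.9, 22.2 and 22.3 CPM in TAM Shp2f/f and 39.2, 39.2 and 40.0 CPM in TAM Shp2f/fLysMcre. The spread within each genotype was under 1 CPM, and the groups were well apart. The log2 difference was 0.80 (SE 0.0434, edgeR, BH-adjusted p = 1.2e-07). Of its exon bases, 5.2% are shared with Tmbim4 on the opposite strand, which had a log2 difference of 0.084 in TAM (edgeR, BH-adjusted p = 0.139). Antisense transcripts over exons of Bcl3 (Gm16175) and Zfp36 (Gm44710) had group means of at most 0.0136 and 0.409 CPM. Irak3 and Bcl3, both higher in MDSC than in TAM, moved in TAM in the same direction as the neutrophil markers. So did 8 of 8 macrophage and 3 of 3 endothelial markers, and the part of these markers was not tested.

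The IκB family moved in both directions. Nfkbiz encodes IκBζ, a nuclear member that is needed for a subset of secondary response genes and so is not an inhibitor alone. In TAM it was at 645, 648 and 633 CPM in Shp2f/f and at 1057, 1079.7 and 1073 CPM in Shp2f/fLysMcre, with a log2 difference of 0.70 (SE 0.0320, edgeR, BH-adjusted p = 3.83e-08). Its groups were separated by many times their own spread.

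Bcl3 was at 52.0, 53.2 and 54.7 CPM in Shp2f/f and at 67.3, 69.4 and 68.4 CPM in Shp2f/fLysMcre TAM. The groups did not overlap, and the log2 difference was 0.32 (SE 0.0399, edgeR, BH-adjusted p = 4.96e-05). Nfkbia, which encodes IκBα, the IκB that is made again fastest after activation, had values of 1246, 1311 and 1248 CPM in Shp2f/f and of 1441, 1437 and 1411 CPM in Shp2f/fLysMcre. Its rise was small, at a log2 difference of 0.14 (SE 0.0307, edgeR, BH-adjusted p = 0.00329), and it was no longer called when libraries were scaled by total counts (0.039, edgeR, BH-adjusted p = 0.251), with no filter on low counts (0.12, edgeR, BH-adjusted p = 0.104) or in one fit of all libraries (0.17, edgeR, BH-adjusted p = 0.168).

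In the same family, Nfkbie, which encodes the slower IκBε, was the one that fell. It was at 543, 519 and 512 CPM in TAM Shp2f/f and at 437, 466 and 465 CPM in TAM Shp2f/fLysMcre, a log2 difference of -0.24 (SE 0.0420, edgeR, BH-adjusted p = 0.00066). No Shp2f/fLysMcre library reached the lowest Shp2f/f value. Nfkbid, which encodes the nuclear protein IκBNS, was at 164, 164 and 163 CPM in Shp2f/f and at 183, 178 and 173 CPM in Shp2f/fLysMcre. Its log2 difference of 0.085 (95% interval 0.0030 to 0.17) did not pass the edgeR test (BH-adjusted p = 0.08) although the groups did not overlap, and it was called with the DESeq2 Wald test (0.10, BH-adjusted p = 0.0354) and with the size factors of DESeq2 in edgeR (0.10, BH-adjusted p = 0.0464). Without TAM Shp2f/fLysMcre replicate 3 it was also called (0.11, edgeR, BH-adjusted p = 0.0441), whereas scaling by total counts gave -0.014.

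Tnfaip3, Tnip1 and Tnip3 went different ways. Tnfaip3 encodes A20, which removes and adds ubiquitin chains on signaling proteins upstream of the IκB kinases. Its TAM level was 1115, 1121 and 1082 CPM in Shp2f/f and 1556, 1604 and 1595 CPM in Shp2f/fLysMcre, a log2 difference of 0.48 (SE 0.0307, edgeR, BH-adjusted p = 3.49e-07). The lowest Shp2f/fLysMcre library was well above the highest Shp2f/f library.

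Its binding partner Tnip1, which encodes ABIN1, fell in the same libraries. It was at 136, 129.8 and 129.8 CPM in Shp2f/f and at 109, 107 and 104 CPM in Shp2f/fLysMcre, with a log2 difference of -0.34 (SE 0.0388, edgeR, BH-adjusted p = 2.65e-05) and no overlap. Tnip3, which encodes the related ABIN3, was low and overlapped between the genotypes, at 12.1, 14.5 and 12.1 CPM against 12.3, 13.3 and 14.7 CPM. The log2 difference was 0.018 (95% interval -0.18 to 0.22, edgeR, BH-adjusted p = 0.886), from 380 to 558 counts per TAM library.

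**Figure D2:**
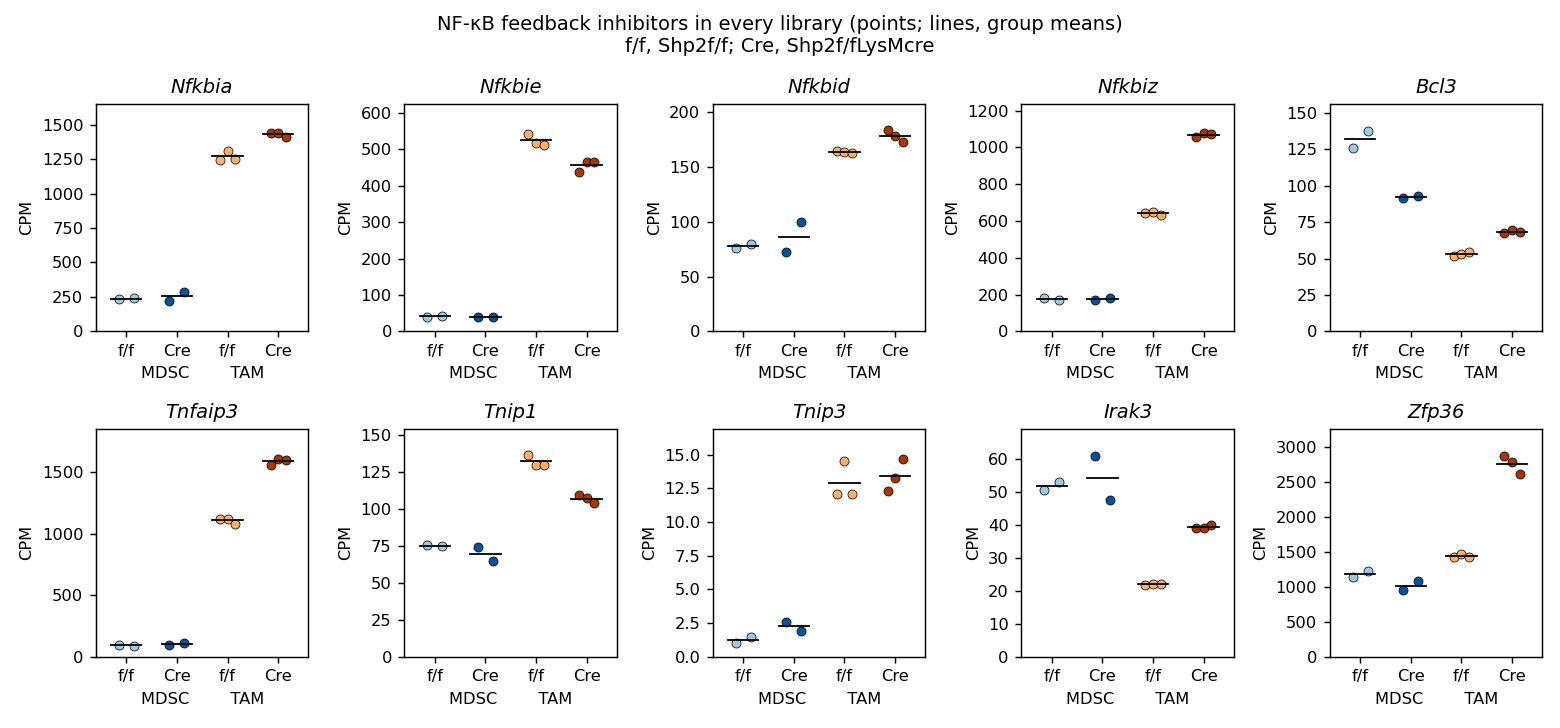
CPM of each of the 10 genes in every library (points) with group means (lines), on linear axes that start at 0, for MDSC (blue, n = 2 per genotype) and TAM (orange, n = 3 per genotype). In TAM the genotypes are apart for 9 genes, most for Zfp36, Irak3 and Nfkbiz, and Tnip3 overlaps, whereas in MDSC Bcl3 is the gene with the clearest gap, downward.

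Set against the promoter search, Nfkbia and Tnfaip3 were higher, Nfkbie and Tnip1 lower, and Nfkbid and Tnip3 not called among the members with a κB match. Bcl3, Irak3 and Zfp36, for which no match was found in the searched window, were all higher in Shp2f/fLysMcre TAM.

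The same comparison in MDSC gave 0 of 10 members called with edgeR, against 4.28% of 14806 genes tested. At an unadjusted p under 0.05 there were 2, Bcl3 and Tnip3, and the DESeq2 Wald test called 1, Bcl3. The libraries of the genotypes did not overlap for 6 of the 10 members, against 48.9% of all genes. The median log2 difference of the members was 0.031, and that of all genes was -0.015. Replicates varied more in MDSC (biological coefficient of variation 0.189) than in TAM (0.0595), so that differences of a given size were measured less precisely in MDSC.

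Bcl3 was at 126 and 138 CPM in MDSC Shp2f/f and at 91.6 and 92.7 CPM in MDSC Shp2f/fLysMcre, which is the opposite direction to TAM. The log2 difference was -0.52 (95% interval -0.80 to -0.24, edgeR, BH-adjusted p = 0.0717). It was called with the DESeq2 Wald test (-0.54, BH-adjusted p = 0.000965), with the replicate block (-0.52, edgeR, BH-adjusted p = 0.00295) and in one fit of all libraries (-0.52, edgeR, BH-adjusted p = 0.000495). The one fit shares its spread with the less variable TAM libraries, so its p-value may be too small. The block pairs libraries by replicate number, which the labels do not say marks a pair. The call also changed without MDSC Shp2f/fLysMcre replicate 1 (-0.55, edgeR, BH-adjusted p = 0.0158) or replicate 2 (-0.52, edgeR, BH-adjusted p = 0.00113), but these fits hold 1 Shp2f/fLysMcre library, which is assumed to vary like the Shp2f/f group, and they are no support for the difference. Neutrophil markers were higher and the range of monocyte marker sums lower in the same Shp2f/fLysMcre libraries (3569 to 5055 against 5649 to 5961 CPM), and their part in this value was not tested.

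Tnip3 was at 1.02 and 1.47 CPM in MDSC Shp2f/f and at 2.60 and 1.93 CPM in MDSC Shp2f/fLysMcre, from 35 to 96 counts per library. The groups did not overlap, yet the log2 difference of 0.86 had a 95% interval of 0.044 to 1.67 and did not pass (edgeR, BH-adjusted p = 0.238). It was called in one fit of all libraries (0.86, edgeR, BH-adjusted p = 0.0282), in which the spread is shared with the less variable TAM libraries. The call also changed without MDSC Shp2f/fLysMcre replicate 2 (1.07, edgeR, BH-adjusted p = 0.00641), a fit in which the spread comes from the Shp2f/f group.

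The members that differed most in TAM showed no such difference in MDSC that could be called. Zfp36 was at 1138 and 1229 CPM in MDSC Shp2f/f and at 951 and 1080.1 CPM in MDSC Shp2f/fLysMcre, lower in both Shp2f/fLysMcre libraries, with a log2 difference of -0.23 (95% interval -0.54 to 0.088, edgeR, BH-adjusted p = 0.415). Irak3 was at 50.8 and 53.1 against 60.9 and 47.5 CPM, so that the Shp2f/fLysMcre replicates lay on either side of the controls (0.057, 95% interval -0.32 to 0.44, edgeR, BH-adjusted p = 0.897). Nfkbiz was at 182 and 169 against 172 and 183 CPM, with overlapping groups (0.0040, 95% interval -0.28 to 0.29, edgeR, BH-adjusted p = 0.991). For Tnfaip3 the values were 95.9 and 90.3 against 96.8 and 109 CPM, a narrow separation upward (0.14, 95% interval -0.15 to 0.42, edgeR, BH-adjusted p = 0.617).

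Among the remaining members in MDSC, Nfkbia (232 and 243 against 222 and 288 CPM) and Nfkbid (76.2 and 80.1 against 72.5 and 99.7 CPM) overlapped between the genotypes, with the highest value in Shp2f/fLysMcre replicate 2. Nfkbie (40.7 and 42.6 against 38.6 and 39.3 CPM) and Tnip1 (75.2 and 74.7 against 74.4 and 64.5 CPM) were slightly lower without overlap. Their log2 differences lay between -0.12 and 0.13, and the widest 95% interval, that of Nfkbid, was -0.28 to 0.55.

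**Figure D3:**
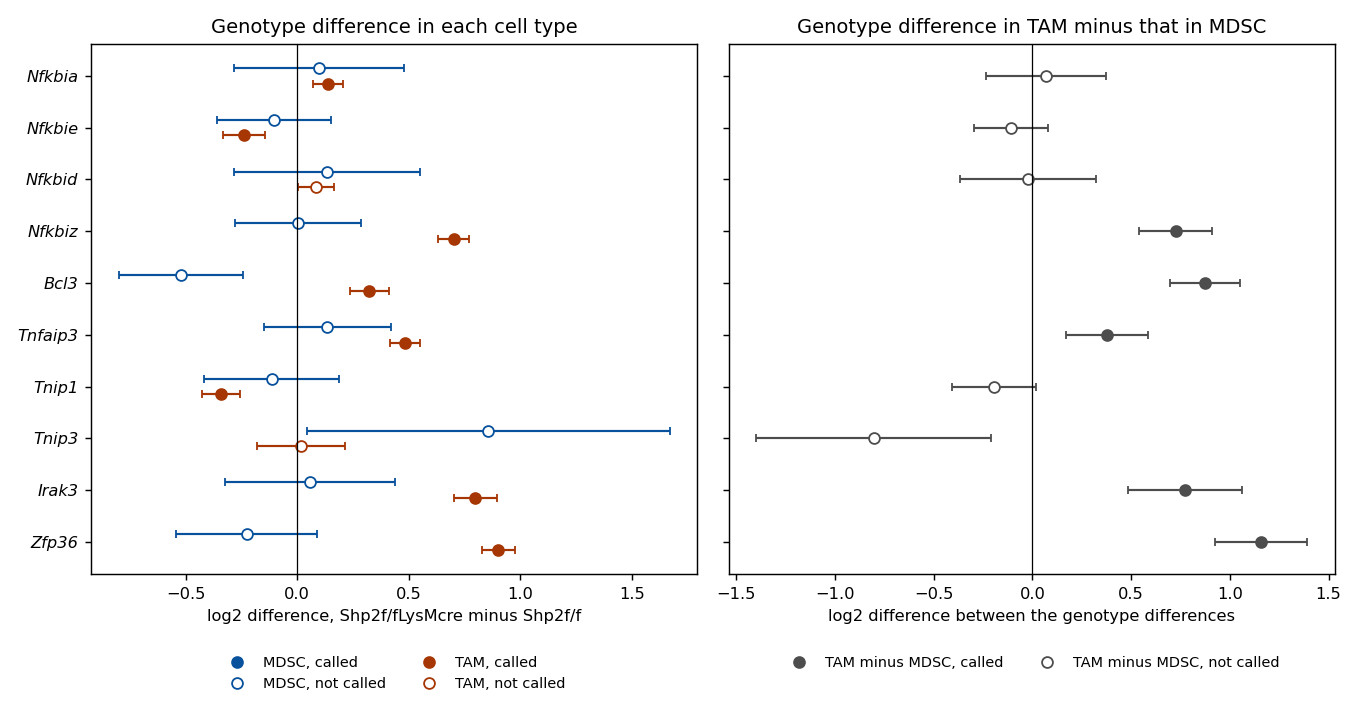
Left, log2 difference between Shp2f/fLysMcre and Shp2f/f for each gene in MDSC (blue) and TAM (orange), with bars for the 95% interval of the edgeR fit and filled symbols for called genes. Right, the TAM difference minus the MDSC difference, where Zfp36, Bcl3, Irak3, Nfkbiz and Tnfaip3 are called and lie to the right of 0.

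Whether the genotype difference itself differed between the cell types was tested over all 10 libraries, taken as independent although TAM and MDSC came from the same mice. It was called for 5 of 10 members, each with a more positive difference in TAM than in MDSC, against 24.9% of 16581 genes, 12.2% more positive and 12.7% more negative. The differences of differences were 1.16 for Zfp36 (SE 0.105, edgeR, BH-adjusted p = 5.89e-05), 0.88 for Bcl3 (SE 0.0797, edgeR, BH-adjusted p = 6.08e-05), 0.77 for Irak3 (SE 0.129, edgeR, BH-adjusted p = 0.00214) and 0.73 for Nfkbiz (SE 0.0820, edgeR, BH-adjusted p = 0.000217). That of Tnfaip3 was 0.38 (SE 0.0924, edgeR, BH-adjusted p = 0.0154) and was not called with total counts (0.20, edgeR, BH-adjusted p = 0.188) or without MDSC Shp2f/f replicate 1 (0.34, edgeR, BH-adjusted p = 0.0833). The edgeR fit gives the noisier MDSC libraries the same spread as TAM, while limma voom weighted by cell type, chosen after seeing the data, called the same count of 5, with BH-adjusted p between 5.85e-05 and 0.0256. In edgeR the SE of each of these 5 was below that of its MDSC difference alone, for Bcl3 0.0797 against 0.111. The edgeR p-values may therefore be too small.

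For Tnip3 the value went the other way, at -0.80 (95% interval -1.40 to -0.21, edgeR, BH-adjusted p = 0.0522). It was called with total counts (-0.97, edgeR, BH-adjusted p = 0.0218) and not by limma voom with the weights (BH-adjusted p = 0.352). Total counts moved the median interaction of all genes from -0.013 to -0.18. Further members were called lower under that scaling, as counted in the last section. Without MDSC Shp2f/fLysMcre replicate 2, the library that stood apart, Tnip3 (-1.01, edgeR, BH-adjusted p = 0.0159), Tnip1 (-0.30, edgeR, BH-adjusted p = 0.0187) and Nfkbia (0.27, edgeR, BH-adjusted p = 0.0254) were called as well, with 1 library left in that group and its spread taken from the others. Nfkbie (-0.11, 95% interval -0.29 to 0.080) and Nfkbid (-0.020, 95% interval -0.36 to 0.32) were not called with either set of libraries under TMM scaling.

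The rest of the pathway was described by lists of genes with the 10 members left out, whose counts in TAM stand beside 23.9% of all genes called higher and 26.3% called lower. In TAM, 9 of 13 genes for NF-κB subunits and the IκB kinase cascade were higher, 1 was lower and 3 were not called, with a median log2 difference of 0.15. The 9 became 5 without TAM Shp2f/fLysMcre replicate 2 and at an adjusted p under 0.01. Ikbkg, which encodes the regulatory IκB kinase subunit NEMO, and Map3k14, which encodes the kinase NIK of the alternative pathway, each had a log2 difference of 0.30 (SE 0.0438 and 0.0426, edgeR, BH-adjusted p = 0.000186 and 0.000158). Of 13 TLR and interleukin-1 receptor adaptors and kinases, 8 were higher and 2 lower (median 0.19). The largest of these differences were those of Ticam2, which encodes the TLR4 adaptor TRAM (1.06, SE 0.0779, edgeR, BH-adjusted p = 1e-06), and Unc93b1, which encodes a transporter of endosomal TLR (0.62, SE 0.0404, edgeR, BH-adjusted p = 4.15e-07).

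Of 25 inducible NF-κB targets, 17 were higher, 2 lower and 6 not called in Shp2f/fLysMcre TAM, against 50.2% of all genes called in either direction, with a median of 0.27. Nos2, the inducible nitric oxide synthase, was at 22.5 ± 0.984 CPM in Shp2f/f and 74.4 ± 0.604 CPM in Shp2f/fLysMcre (SD, n = 3 each), a log2 difference of 1.69 (SE 0.0446, edgeR, BH-adjusted p = 2.2e-09). Saa3, which encodes an acute-phase protein, was at 58.5 ± 2.15 and 150.2 ± 17.4 CPM (SD, n = 3 each), a log2 difference of 1.32 (SE 0.0709, edgeR, BH-adjusted p = 1.08e-07). Of 22 other inhibitors of NF-κB and TLR signaling, 12 were higher and 1 lower (median 0.13). The phosphatase gene Dusp1, which ends p38 and JNK signaling, rose by 1.13 (SE 0.0313, edgeR, BH-adjusted p = 2.2e-09) and the cytokine signaling inhibitor Socs3 by 0.79 (SE 0.0348, edgeR, BH-adjusted p = 3.07e-08). The lists overlap, since Dusp1 is also among the immediate early and heat shock genes and Traf3 also among the adaptors.

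Of 16 immediate early and heat shock genes, which are also induced when tissue is dissociated, 14 were higher and 1 lower in Shp2f/fLysMcre TAM, with a median of 0.90. Hspa1a (1.91, SE 0.0692, edgeR, BH-adjusted p = 8.26e-09) and Atf3 (1.28, SE 0.0358, edgeR, BH-adjusted p = 2.2e-09) had the largest differences. Zfp36 itself responds as an immediate early gene in many cells, and its TAM difference of 0.90 equaled the median of this list. Their part in the differences of the 10 inhibitors was not tested. With libraries scaled by total counts, which moved the median of all genes in TAM to -0.11, the counts higher and lower were 4 and 1 for the subunits and kinases, 5 and 4 for the adaptors, 14 and 4 for the targets, 7 and 4 for the other inhibitors and 14 and 1 for the immediate early and heat shock genes.

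The list counts in MDSC stand beside 4.28% of all 14806 genes called in either direction and a median of -0.015. None of the 13 subunit and kinase genes, the 13 adaptors and the 16 immediate early and heat shock genes was called by edgeR. Their medians were -0.083, -0.13 and -0.054. At an unadjusted p under 0.05 these lists had 1, 1 and 3 genes. The DESeq2 Wald test called 0 subunit and kinase genes, 1 adaptor and 2 immediate early and heat shock genes. Of the 24 inducible targets tested, 3 were higher and 0 lower (median 0.19), including Cxcl10 (1.76, SE 0.216, edgeR, BH-adjusted p = 0.0208) and Marcksl1 (1.42, SE 0.159, edgeR, BH-adjusted p = 0.0187). Of 22 other inhibitors, the decoy receptor gene Il1r2 (0.81, SE 0.136, edgeR, BH-adjusted p = 0.0393) and Usp18, which restrains interferon signaling (0.69, SE 0.108, edgeR, BH-adjusted p = 0.0335), were the 2 called. These counts turned on single libraries. Without MDSC Shp2f/fLysMcre replicate 1 there were 8 adaptors, 2 subunit and kinase genes and 2 immediate early and heat shock genes called lower, and without replicate 2 of that group 1, 0 and 4. Higher calls among the targets were 8 without either Shp2f/fLysMcre library and 0 without either Shp2f/f library, and among the other inhibitors the higher and the lower calls each ran from 0 to 4 as libraries were left out. Each of these fits leaves 1 library in a group.

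**Figure D4:**
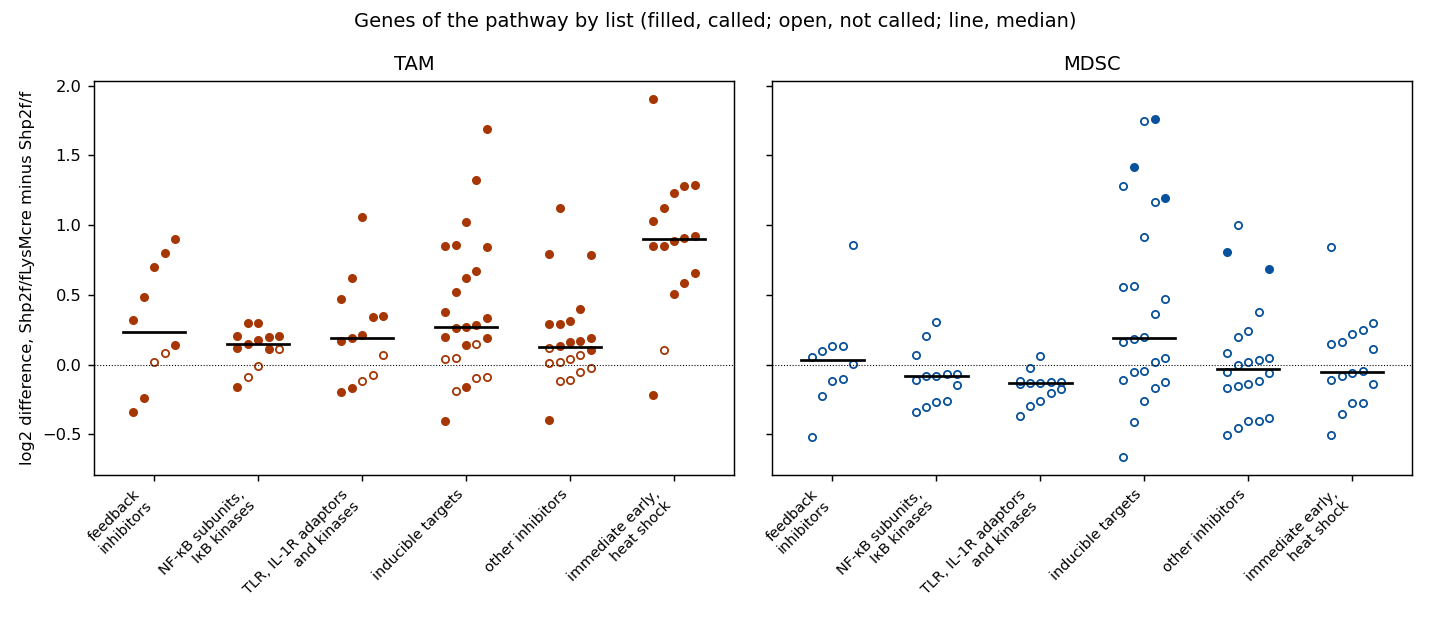
Log2 difference between Shp2f/fLysMcre and Shp2f/f for each gene of the feedback inhibitors and of 5 lists, in TAM (orange, left) and MDSC (blue, right), with filled points for called genes and a black line at each median. In TAM the median of every list is above 0, from 0.13 to 0.90, and in MDSC few points are filled.

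Across the 10 libraries, the gene most like each member in log2 CPM was named as a description, out of 8841 genes averaging 10 CPM or more. Cell type separates these points, so that any gene with a similar contrast between TAM and MDSC has a high Pearson correlation. The closest were Cd4 to Nfkbiz, Stk38l to Nfkbie and Etv5 to Tnfaip3 (each 0.9996), Ccl7 to Nfkbia (0.9994), and Ackr3 to Nfkbid, Mybbp1a to Tnip1 and Glul to Zfp36 (each 0.9973). Bcl3 was closest to Tarm1 (0.996), Tnip3 to Nipsnap2 (0.9957) and Irak3 to Inpp4a (0.9914).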

How the data were processed

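Stranded poly(A) libraries were sequenced on an Illumina NextSeq instrument with paired ends of 42 nt. The authors trimmed reads with Cutadapt 2.5, aligned them to GRCm38 with STAR 2.7.3a and counted them on Ensembl genes with featureCounts (Subread 1.6.2). They deposited raw counts, whole numbers of reads per gene that are not normalized. The strand setting of the counting was not given in the sources used here, so counts of overlapping genes on opposite strands are uncertain. A deposited normalized table was not used.

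Groups and replicate numbers came from the sample titles. Symbols came from GENCODE M21 (GRCm38), which matched 99.67% of identifiers. The edgeR 4.0.16 quasi-likelihood F test in R 4.3.3 was fitted to all genes kept by filterByExpr (minimum count 10) after TMM scaling. It compared the genotypes within TAM and within MDSC, tested the interaction over all 10 libraries, and compared TAM with MDSC in the 5 Shp2f/f libraries. Adjustment was by Benjamini-Hochberg (BH) over all tested genes, and genes were called at an adjusted p under 0.05. Standard errors were the log2 difference over the root of F, and 95% intervals used the t quantile that matches each p. The script was tested on simulated data. Levels per kilobase used the exons of all transcripts.

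The members and lists were chosen with earlier results of these data known. All 10 members are named, and from each list the called genes with the 2 largest absolute differences per cell type. Alternatives were the Wald test of DESeq2 1.42.0, its size factors in edgeR, total counts, no filter, an adjusted p under 0.01, a replicate block, one fit of all libraries, and leaving out each library. The voom method of limma 3.58.1 with weights per cell type was added after seeing the data. Total counts of 28844660 to 38222998 left Tnip3 in MDSC as the member measured on the fewest counts, at most 96 per library.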

Additional observations from a re-analysis of the deposited data

Results flagged for a closer look

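For 5 of the 10 inhibitors the genotype difference in TAM differed from that in MDSC (edgeR interaction over 10 libraries, BH-adjusted p from 5.89e-05 to 0.0154). That fit gives the noisier MDSC libraries the same spread as TAM, so these p-values may be too small. Zfp36, at 1.16 on the log2 scale, was higher in 3 of 3 Shp2f/fLysMcre TAM libraries and lower in 2 of 2 Shp2f/fLysMcre MDSC libraries than every control of the same cell type. Bcl3, at 0.88, showed the same directions in all of these libraries. Of all genes tested, 57.9% in TAM and 48.9% in MDSC had no overlap between the genotypes. Neither MDSC difference was called (edgeR, BH-adjusted p = 0.415 for Zfp36 and 0.0717 for Bcl3). Irak3, at 0.77, and Nfkbiz, at 0.73, were higher in 3 of 3 TAM libraries, while in MDSC their groups overlapped. Tnfaip3, at 0.38, was higher in 3 of 3 TAM libraries. In MDSC its groups separated narrowly upward, and the difference was not called (0.14, 95% interval -0.15 to 0.42, edgeR, BH-adjusted p = 0.617). Its interaction was not called with total counts. Neutrophil and macrophage markers, Xist and islet transcripts differed between the same groups, and their part in these values was not tested.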

How the results depend on the processing

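The 8 higher and 2 lower calls between TAM and MDSC, and the 2 lower calls in TAM, held under every alternative run, and the 6 higher calls in TAM ranged from 5 to 7. In MDSC, 1 member was called higher in one fit of all libraries, and 0 to 1 when each library was left out. There 1 was called lower with DESeq2, with the replicate block and in one fit, and 0 to 1 when each library was left out. In the interaction, 3 members were called lower with total counts and 0 to 2 when each library was left out.

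Signs turned for differences near 0. In TAM, total counts gave -0.014 for Nfkbid and -0.079 for Tnip3, whose values without each library ran from -0.049 to 0.12. In MDSC, Nfkbiz was -0.011 with DESeq2 and -0.013 with no filter. Without each MDSC library, Nfkbia ran from -0.093 to 0.24, Nfkbid from -0.10 to 0.31, Nfkbiz from -0.049 to 0.054 and Irak3 from -0.17 to 0.23. In the interaction, Nfkbia was -0.11 with total counts and -0.10 to 0.27 without each library. Nfkbid was 0.019 with DESeq2, 0.014 with its size factors and 0.014 with no filter, and -0.22 to 0.23 without each library. The cause was not tested.

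Deviations from the group means correlated between same-numbered libraries of the genotypes by 0.17 in MDSC and by -0.083, 0.064 and 0.034 in TAM. In TAM, differently numbered libraries gave -0.11 to 0.068, a range that holds the same-numbered values. With 2 MDSC libraries per genotype, crossed numbers can give only the opposite value, -0.17, so the check cannot decide whether MDSC libraries were paired. Apart from Bcl3 in MDSC, the replicate block changed no call of a member. In MDSC it raised the higher calls from 3 to 8 among inducible targets and from 2 to 4 among other inhibitors, and the lower calls from 0 to 2 and from 0 to 5. In TAM, one fit of all libraries gave 5 adaptors called higher, against 8, and 0 genes called lower among subunits and kinases, adaptors and targets. In MDSC it gave 8 targets called higher, against 3, and DESeq2 gave 5. One fit of all libraries gives MDSC a spread shared with the less variable TAM libraries. Fits without an MDSC library leave 1 library in a group, which is assumed to vary like the others. Precision was limited by the low count of Tnip3 and by 2 libraries per MDSC genotype.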
